A study of Mus musculus with 6 samples.

Results

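Hox genes encode the homeodomain proteins that give cells their position along the head-to-tail axis, and the TALE genes Meis and Pbx encode the cofactors that bind DNA with them. The genes described here are those whose symbol, given alone to a probe set, was a Hox gene of the clusters Hoxa, Hoxb, Hoxc or Hoxd, or a Meis or Pbx gene. The rule found 39 of the 18194 genes represented on the array. They were 33 Hox genes (9 Hoxa, 9 Hoxb, 7 Hoxc and 8 Hoxd) and 6 TALE genes (3 Meis and 3 Pbx). Genes of these families without a probe set of their own were not analysed here.

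The cells were of 1 mouse embryonic stem cell (ESC) line, OLV2-1, in which the fluorescent protein Venus is knocked into the Oct4 locus, so every group carried the reporter and was sorted as Venus-positive. There were 3 groups of 2 arrays. ESC are undifferentiated cells, EpiSC-like cells resemble epiblast stem cells and came from day 3 of SFEBq, a serum-free aggregate culture used to induce neural tissue, and the last group came from day 7 of SFEBq. The sort gates differed, because EpiSC-like cells were also negative for Pecam1 (CD31), ESC were defined in the sorting protocol as CD31-positive, and no Pecam1 gate is named for day 7. Trypsin and antibody staining were used for the first 2 groups, and EDTA in saline, with no staining named, for day 7. Whether replicates were grown separately is not stated in the labels, and each p-value therefore reflects the spread among these arrays, which may be technical.

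In mammals the Hox genes lie in 4 clusters, and within a cluster the genes at the 3' end, those with the lowest paralogue numbers, are switched on first and reach furthest towards the head. Retinoic acid, Wnt and FGF signals start this sequence, Polycomb proteins keep the clusters silent in stem cells, and Hoxb1 and Hoxb2 are known for their domains in the hindbrain. Meis and Pbx proteins form complexes with Hox proteins of the hindbrain, and Meis2 is also known from the midbrain, forebrain and other tissues in which no Hox gene is active.

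Of the 39 genes, 7 were at least 2-fold apart between all ESC and all EpiSC-like arrays, and the RefSeq promoter table (mouse assembly GRCm38.p6) held 3 of these, Hoxb1, Hoxa2 and Meis2. Their 250 bases before the annotated start are shown because Hoxb1 had the largest difference of all 39 genes, Meis2 was the one gene called at both stages, and Hoxa2 holds both cofactor motifs. They were read on the gene's strand, 5' to 3'. Capitals mark matches to the motifs named in the next paragraph.
Hoxb1, chr11:96365508-96365757, plus strand: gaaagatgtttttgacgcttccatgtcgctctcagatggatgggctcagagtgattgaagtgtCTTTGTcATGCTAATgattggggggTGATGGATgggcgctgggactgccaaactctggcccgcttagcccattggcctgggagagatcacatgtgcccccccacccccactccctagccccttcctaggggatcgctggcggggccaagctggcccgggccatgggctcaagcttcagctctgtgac
Hoxa2, chr6:52164832-52165081, minus strand: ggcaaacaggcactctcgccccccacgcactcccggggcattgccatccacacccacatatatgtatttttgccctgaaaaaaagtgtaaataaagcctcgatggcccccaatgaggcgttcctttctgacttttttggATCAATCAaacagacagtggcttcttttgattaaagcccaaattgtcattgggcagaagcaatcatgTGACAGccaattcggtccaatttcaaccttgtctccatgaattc
Meis2, chr2:116064620-116064869, minus strand: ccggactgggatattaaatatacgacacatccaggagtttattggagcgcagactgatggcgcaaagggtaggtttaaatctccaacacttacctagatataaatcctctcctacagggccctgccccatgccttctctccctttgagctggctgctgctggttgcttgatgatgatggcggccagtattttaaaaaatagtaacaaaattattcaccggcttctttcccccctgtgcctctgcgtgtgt

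The Hoxb1 window held the Pbx-Hox motif TGATNNAT as TGATGGAT, 162 to 155 bases before the start. It also held the octamer ATGCTAAT at 180 to 173 and the Sox motif CTTTGT at 187 to 182 bases before the start, and both of these motifs were added to the search after the sequence was seen. The upstream region of Hoxb1 is known for an autoregulatory element in which Hox and Pbx proteins bind together, with a site for Sox and Oct proteins beside it. The Hoxa2 window held the Meis motif TGACAG at 44 to 39 and, on the other strand, the Pbx-Hox motif as ATCAATCA at 111 to 104 bases before the start. The Meis2 window held none of the motifs searched.

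Motifs were searched on both strands, and a match describes letters, not a bound site. The table matched 24 of the 39 genes with 26 promoters, and had no entry for Hoxa4, Hoxb2, Hoxb3, Hoxb5, Hoxb6, Hoxb7, Hoxb9, Hoxb13, Hoxc5, Hoxc6, Hoxc8, Hoxc9, Hoxc10, Hoxc13 and Pbx3. The Pbx-Hox motif was in 3 of the 26 promoters (11.5%: Hoxa2, Hoxb1 and Hoxd11) and in 7.68% of all 32851 promoters of the same length. The Meis motif was in 2 of 26 (7.69%: Hoxa2 and Hoxa3) against 15.9% of all. The Cdx motif TTTATG was in 3 of 26 (11.5%: Hoxa7, Hoxd3 and Hoxd11) against 10.8%. The retinoic acid receptor half-site AGGTCA was in 5 of 26 (19.2%: Hoxb4, Hoxc4, Hoxd3, Hoxd8 and Hoxd10) against 14.0%. The octamer and the Sox motif were added after the Hoxb1 sequence was seen, so its match to each was known in advance. The octamer was in 1 of 26 (3.85%, Hoxb1 itself) against 0.828% and the Sox motif in 6 of 26 (23.1%) against 16.5%. Direct repeats of AGGTCA spaced by 2 or by 5 bases were in 0 of the 26 and each in 0.00913% of all.

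Signals are linear intensities that the authors had scaled to a common level. Median signals of the 6 arrays were at most 76.3, and arrays of 1 group correlated across genes with r of 0.976 to 0.978. Replicate 1 and replicate 2 arrays stood apart in every group, with highest signals of 30793 to 36841 and 63296 to 66643 and hybridization controls of 2696.3 to 3531.0 and 4686.1 to 6433.1. Control RNAs added before labelling read 39.0 and 40.7 (median of their probe sets) on EpiSC-like and ESC replicate 2 and 236.3 to 348.3 on the other 4 arrays. Differences were fitted with limma on log2(signal + 16), a scale that understates the change of dim genes, and a gene was called when its adjusted p (Benjamini-Hochberg, all 18194 genes) was under 0.05. A second description counts genes whose every array in one group lay at least 2-fold from every array of the other on that scale. A gene is termed bright here when its highest group mean reached the median of that quantity over all genes, 7.97 in log2 or a signal of 235. By this measure 7 of the 39 genes were bright, namely Hoxa5, Hoxb1, Hoxb2, Hoxb3, Meis2, Pbx2 and Pbx3, so 4 of 33 Hox genes and 3 of 6 TALE genes.

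**Figure D1:**
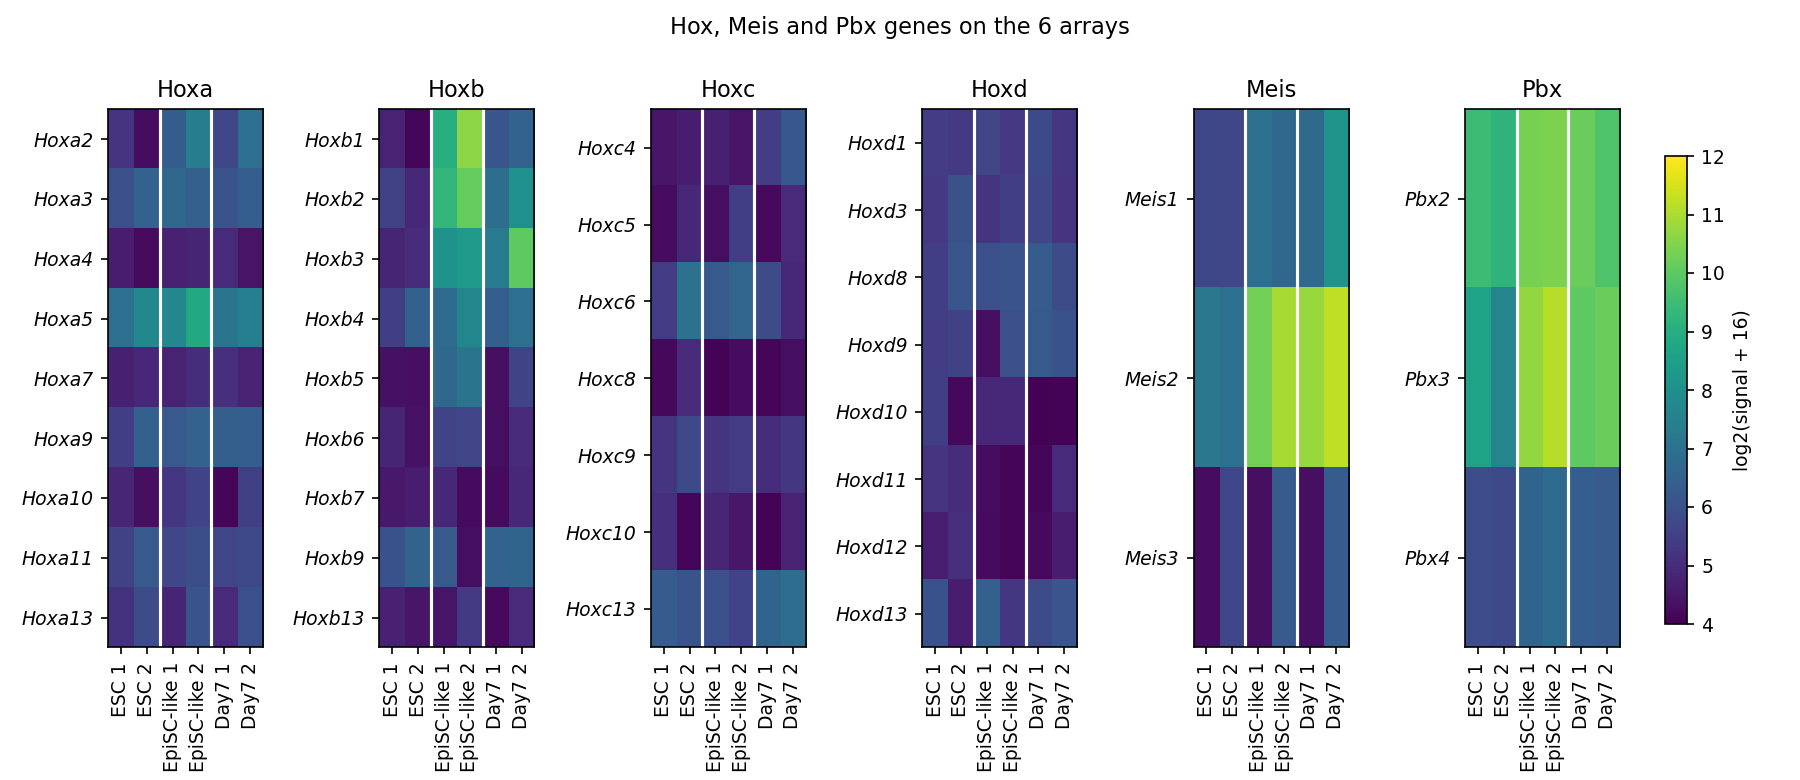
Heat map of log2(signal + 16) of the 39 genes (vertical axis, by cluster and paralogue number, then Meis and Pbx) on the 6 arrays (horizontal axis, by group and replicate). Lighter colour is a higher value. Hoxb1, Hoxb2, Hoxb3, Meis2 and Pbx3 are lighter in EpiSC-like cells than in ESC, while the Hoxc and Hoxd genes stay dark on all arrays.

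EpiSC-like cells at day 3 differed from ESC in 3 genes of the Hoxb cluster and in 2 TALE genes. Hoxb1, Hoxb2, Hoxb5, Meis2 and Pbx3 rose, which is 5 of 39 genes (12.8%) where 1.31% of all genes were called higher, and 0 of 39 fell where 0.583% were called lower (limma; 14 of the 39 had an unadjusted p under 0.05). By the second description 7 of 39 (17.9%) were higher by at least 2-fold throughout, the same 5 with Hoxa2 and Hoxb3, against 2.57% of all genes, and 0 were lower against 1.21%. The median log2 difference was 0.32 over the 39 genes and 0.03 over all genes, with 29 of the 39 and 9524 of all 18194 genes above 0. With the arrays centred on their medians it was 0.17 over the 39 genes, 23 of them above 0, and -0.13 over all genes. Day 7 cells differed from ESC by the call of 1 gene, Meis2, which rose. That is 2.56% of the 39 genes, against 0.753% of all genes called higher, and 0 were called lower against 0.286% (limma; 9 of 39 with an unadjusted p under 0.05). At least 2-fold higher throughout were 6 of 39 (15.4%: Hoxb1, Hoxb2, Hoxb3, Meis1, Meis2 and Pbx3) against 2.68% of all genes, and 0 were lower against 0.995%. The 2 comparisons share the ESC arrays. In bulk RNA, fewer cells that express a gene and less RNA per cell cannot be told apart.

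Hoxb1 (NCBI gene 15407), the gene at the 3' end of its cluster and the one that defines the fourth hindbrain segment, had signals of 11.88 and 1.794 in ESC (replicates 1 and 2). Its signals were 509.9 and 1544 in EpiSC-like cells and 54.46 and 75.58 at day 7. The 3 groups did not overlap, with EpiSC-like cells highest, day 7 between, and ESC near the bottom of the scale. Hoxb1 rose in EpiSC-like cells against ESC by a log2 difference of 5.35 ± 0.53 (SE; limma adjusted p = 0.0164), which was 4.24 between the replicate 1 arrays and 6.45 between the replicate 2 arrays. Day 7 against ESC gave 1.85 ± 0.53 (limma adjusted p = 0.147) and day 7 against EpiSC-like cells -3.50 ± 0.53 (limma adjusted p = 0.0863), neither of them called.

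Hoxb2 (NCBI gene 103889), a hindbrain gene next to Hoxb1 and known as one of its targets, read 30.65 and 13.87 in ESC, 598.6 and 1082 in EpiSC-like cells, and 103.2 and 241.8 at day 7. The order of the groups was that of Hoxb1, again without overlap. Hoxb2 rose in EpiSC-like cells by 4.46 ± 0.47 (SE; limma adjusted p = 0.0200). The difference of day 7 from ESC was 2.23 ± 0.47 (limma adjusted p = 0.0871) and that from EpiSC-like cells -2.23 ± 0.47 (limma adjusted p = 0.126).

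Hoxb3 (NCBI gene 15410), the next gene of the cluster, read 12.33 and 16.66 in ESC, 253.1 and 308.1 in EpiSC-like cells, and 145.6 and 1025 at day 7. ESC lay apart from both other groups, whereas the 2 day 7 arrays lay on either side of the EpiSC-like arrays. None of its differences was called, at 3.28 ± 0.78 for EpiSC-like cells (SE; limma adjusted p = 0.102), 3.75 ± 0.78 for day 7 against ESC (limma adjusted p = 0.0839) and 0.47 ± 0.78 between the later groups (limma adjusted p = 0.843). With the 2 groups alone the EpiSC-like difference was called (limma adjusted p = 0.0368). Without day 7 replicate 1 the day 7 difference from ESC was 5.10 and called (limma adjusted p = 0.0464). Without day 7 replicate 2 the difference between the later groups was -0.87, the opposite sign. A second Hoxb3 probe set read 14.04 and 14.32, then 73.45 and 135.9, then 48.42 and 132.0, with differences of 1.95, 1.69 and -0.26.

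**Figure D2:**
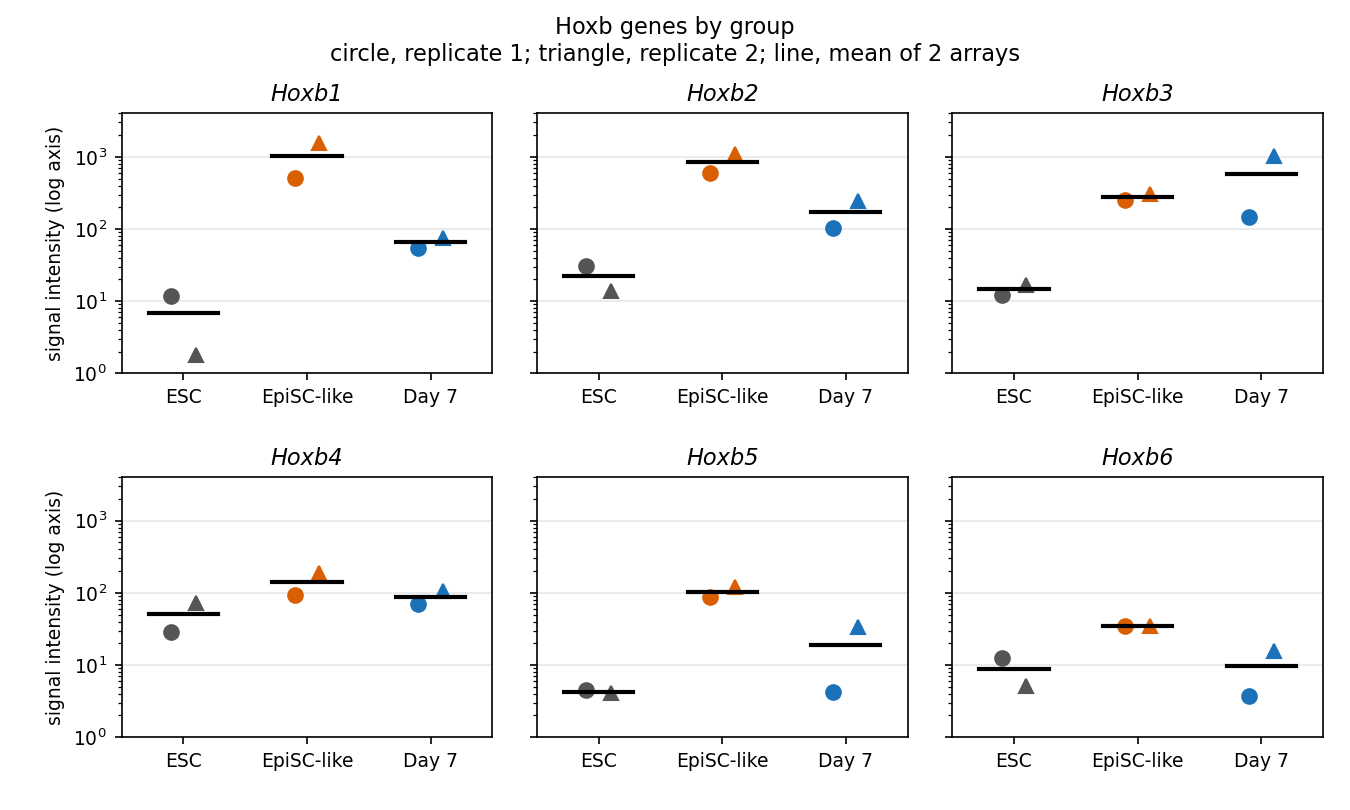
Signal (intensity, log axis) of Hoxb1, Hoxb2, Hoxb3, Hoxb4, Hoxb5 and Hoxb6, 1 point per array (circle for replicate 1, triangle for replicate 2) and a line at the mean of each group. Hoxb1 and Hoxb2 are lowest in ESC, highest in EpiSC-like cells and between at day 7, while the day 7 arrays of Hoxb3 are spread from 145.6 to 1025.

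Hoxb5 (NCBI gene 15413), a gene of the centre of the cluster, read 4.446 and 4.073 in ESC, 88.83 and 118.6 in EpiSC-like cells, and 4.268 and 33.43 at day 7. It was dim on all arrays, and EpiSC-like cells stood above both other groups, which overlapped. Hoxb5 rose in EpiSC-like cells by 2.55 ± 0.43 (SE; limma adjusted p = 0.0454). Day 7 against ESC gave 0.64 ± 0.43 (limma adjusted p = 0.481), and day 7 against EpiSC-like cells -1.91 ± 0.43 (limma adjusted p = 0.136).

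Hoxb4 and Hoxb6, described because of their place in the cluster and chosen after their values were seen, were dim. Hoxb4 read 28.72 and 71.96 in ESC, 94.49 and 187.8 in EpiSC-like cells, and 69.18 and 104.6 at day 7, so that day 7 overlapped both other groups. Its EpiSC-like difference from ESC was 1.26 ± 0.44 (SE; limma adjusted p = 0.233), and that of its second probe set 1.49. Hoxb6 read 12.34 and 5.087 in ESC, 34.17 and 34.78 in EpiSC-like cells, and 3.713 and 15.74 at day 7. EpiSC-like cells were above the others, with a difference of 1.05 ± 0.31 from ESC (SE; limma adjusted p = 0.166). The 5' genes Hoxb7, Hoxb9 and Hoxb13 lay between 2.449 and 80.24 on all arrays, with EpiSC-like differences from ESC of 0.01, -1.02 and 0.32. That of Hoxb9 rested on EpiSC-like replicate 2, which read 3.556 where the other arrays read 49.21 to 80.24. The log2 differences thus did not fall evenly along the cluster, at 5.35, 4.46, 3.28, 1.26, 2.55 and 1.05 from Hoxb1 to Hoxb6. The 9 Hoxb genes had a median difference of 1.26, 8 of 9 above 0, and 7 of 9 above 0 when arrays were centred on their medians.

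The genes next to the clusters on the RefSeq order were measured alike. Skap1, the first measured protein-coding gene beyond Hoxb1, read 26.01 and 58.75 in ESC, 59.13 and 49.73 in EpiSC-like cells, and 39.30 and 48.83 at day 7. Its difference for EpiSC-like cells was 0.33 ± 0.32 (SE; limma adjusted p = 0.711). Ttll6, beyond Hoxb13, gave -0.23 ± 0.32 (limma adjusted p = 0.806). None of the 8 neighbours of the 4 clusters, Skap2, Evx1, Ttll6, Skap1, Calcoco1, Smug1, Evx2 and Mtx2, was called in any of the 3 limma comparisons.

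Hoxa5 (NCBI gene 15402) was the one bright Hox gene outside the Hoxb cluster, and its probe sets differed. The brighter read 106.5 and 195.2 in ESC, 192.3 and 445.2 in EpiSC-like cells, and 120.1 and 160.9 at day 7, so that ESC overlapped both other groups and day 7 lay below EpiSC-like cells. Its EpiSC-like difference from ESC was 0.95 ± 0.45 (SE; limma adjusted p = 0.379) and the day 7 difference -0.05 ± 0.45 (limma adjusted p = 0.971). The other probe set read 9.315 and 8.679 in ESC, 156.8 and 453.9 in EpiSC-like cells, and 35.41 and 41.61 at day 7. There the groups did not overlap, and the order was that of Hoxb1. When each gene was represented by its most variable probe set, Hoxa5 was called higher in EpiSC-like cells (3.51, limma adjusted p = 0.0381), and the day 7 difference from ESC was 1.12.

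Hoxa2, a hindbrain gene chosen here after its values were seen, read 21.38 and 3.170 in ESC, 66.51 and 150.4 in EpiSC-like cells, and 36.45 and 106.4 at day 7. ESC lay below all other arrays, and the later groups overlapped. The EpiSC-like difference was 2.13 ± 0.56 (SE; limma adjusted p = 0.128) and the day 7 difference 1.58 ± 0.56 (limma adjusted p = 0.210). Hoxa3, also chosen after its values were seen, had 4 probe sets, with EpiSC-like differences of 0.36 for the one that represents it and 1.52, 0.47 and -0.03 for the others. The remaining Hoxa genes, Hoxa4, Hoxa7, Hoxa9, Hoxa10, Hoxa11 and Hoxa13, lay between 1.320 and 75.84 on all arrays. The 9 Hoxa genes had median differences of 0.37 for EpiSC-like cells and 0.14 for day 7 against ESC, and 0 of 9 were called in either (limma; 1 of 9 in each with an unadjusted p under 0.05).

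The Hoxc and Hoxd genes held no bright gene and no call. Of all genes, 1.31% were called higher and 0.583% lower in EpiSC-like cells against ESC, and 0.753% and 0.286% at day 7. The lack of calls in sets this small, as among the Hoxa genes, is therefore near the share over all genes. The 7 Hoxc genes (Hoxc4, Hoxc5, Hoxc6, Hoxc8, Hoxc9, Hoxc10 and Hoxc13) lay between 0.7375 and 110.9, with medians of 0.01 for EpiSC-like cells and -0.19 for day 7 against ESC. The 8 Hoxd genes (Hoxd1, Hoxd3, Hoxd8, Hoxd9, Hoxd10, Hoxd11, Hoxd12 and Hoxd13) lay between 0.5835 and 72.47, with medians of -0.11 and -0.03. In limma 0 of 7 and 2 of 8 had an unadjusted p under 0.05 for EpiSC-like cells, and 1 of 7 and 0 of 8 for day 7 against ESC. Hoxc4 and Hoxc13, chosen after their values were seen, were highest on both day 7 arrays. Hoxc4 read 6.483 and 8.325 in ESC, 9.838 and 5.353 in EpiSC-like cells, and 27.41 and 56.36 at day 7. Its day 7 difference from ESC was 1.26 ± 0.31 (SE; limma adjusted p = 0.110) and was not called. Hoxc13 read 64.24 and 51.62 in ESC, 46.59 and 32.33 in EpiSC-like cells, and 78.90 and 99.39 at day 7, none of it called.

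By paralogue number, the 10 anterior genes (1 to 4) had a median EpiSC-like difference from ESC of 0.81. Of these 9 of 10 were above 0 and 2 were called, where 1.31% of all genes were called higher. Outside the Hoxb cluster the anterior differences were 2.13 for Hoxa2, 0.36 for Hoxa3 and 0.37 for Hoxa4. They were 0.01 for Hoxc4, 0.1 for Hoxd1 and -0.3 for Hoxd3. The 9 central genes (5 to 8) had a median of 0.24, 8 of 9 above 0 and 1 called, and the 14 posterior genes (9 to 13) a median of -0.06, 6 of 14 above 0 and 0 called (limma; 2 of 14 with an unadjusted p under 0.05). For day 7 against ESC the medians were 0.98, 0.01 and -0.03. Of the anterior genes outside the Hoxb cluster, Hoxa2 then gave 1.58, Hoxc4 1.26 and the others -0.19 to 0.3. Centring the arrays on their medians moved the median of all genes from 0.03 to -0.13 in the EpiSC-like comparison and from 0.02 to -0.20 in that of day 7, and gave the anterior genes 0.66 and 0.77, the central genes 0.09 (6 of 9 above 0) and -0.20 (2 of 9), and the posterior genes -0.21 (4 of 14) and -0.24 (6 of 14). The genes called in these classes, Hoxb1, Hoxb2 and Hoxb5, were all of the Hoxb cluster. The difference between the classes was not tested.

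**Figure D3:**
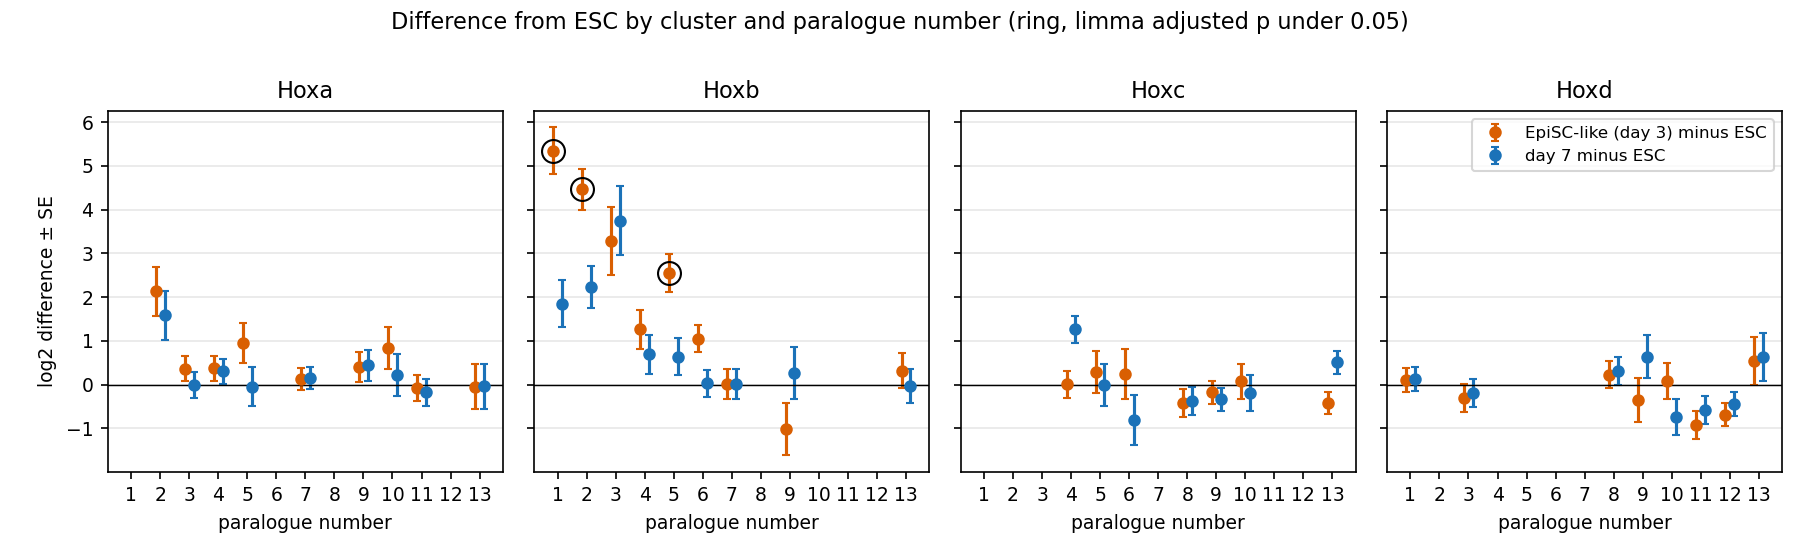
Log2 difference from ESC with its standard error (vertical axis) of each of the 33 Hox genes against its paralogue number (horizontal axis, 1 at the 3' end), 1 panel per cluster, with EpiSC-like cells and day 7 in 2 colours and a ring around called values. The largest differences are those of Hoxb1, Hoxb2 and Hoxb3, and genes numbered 9 to 13 lie between -1.02 and 0.83.

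Meis2 (NCBI gene 17536), a TALE protein that binds DNA next to Hox and Pbx proteins, read 129.5 and 107.6 in ESC, 1248 and 1961 in EpiSC-like cells, and 1742 and 2384 at day 7. ESC lay far below all other arrays, and the later groups overlapped. Meis2 rose in EpiSC-like cells by 3.56 ± 0.31 (SE; limma adjusted p = 0.0164) and at day 7 by 3.94 ± 0.31 (limma adjusted p = 0.0221), and was the one of the 39 genes called in both comparisons. Between the later groups the difference was 0.38 ± 0.31 (limma adjusted p = 0.648). Its other 3 probe sets gave 3.66, 2.21 and 2.49 for EpiSC-like cells and 3.33, 2.33 and 2.41 for day 7 against ESC.

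Meis1 (NCBI gene 17268), chosen after its values were seen, read 37.29 and 35.54 in ESC, 104.9 and 87.37 in EpiSC-like cells, and 93.92 and 268.3 at day 7. It was dim, with ESC below the other groups, at differences of 1.09 ± 0.44 (SE; limma adjusted p = 0.296) and 1.75 ± 0.44 (limma adjusted p = 0.115), and its other 2 probe sets gave 0.31 and -0.01 for EpiSC-like cells and 0.74 and -0.07 for day 7. Meis3, likewise chosen, read 3.260, 4.192 and 4.220 on the replicate 1 arrays of ESC, EpiSC-like cells and day 7, and 35.95, 61.91 and 65.20 on the replicate 2 arrays. Its signal thus differed by replicate number more than by group.

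Pbx3 (NCBI gene 18516), a PBC-class partner of Hox and Meis proteins, read 381.5 and 182.3 in ESC, 1643 and 2232 in EpiSC-like cells, and 1029 and 1147 at day 7. The groups did not overlap, with EpiSC-like cells highest. Pbx3 rose in EpiSC-like cells by 2.78 ± 0.37 (SE; limma adjusted p = 0.0281). Day 7 against ESC gave 1.97 ± 0.37 (limma adjusted p = 0.0690) and day 7 against EpiSC-like cells -0.81 ± 0.37 (limma adjusted p = 0.403). Its second probe set gave 1.91, 1.30 and -0.61.

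Pbx2 (NCBI gene 18515), of the same class, read 698.6 and 567.3 in ESC, 1284 and 1359 in EpiSC-like cells, and 1138 and 875.9 at day 7. The 3 groups did not overlap and kept the order of Pbx3, over a smaller difference. The EpiSC-like difference from ESC was 1.05 ± 0.25 (SE; limma adjusted p = 0.104), and its other 2 probe sets gave 1.35 and 1.28. Pbx4, chosen after its values were seen, read 43.19 and 38.83 in ESC, 78.69 and 96.38 in EpiSC-like cells, and 68.13 and 63.26 at day 7. It was dim but ordered alike, at 0.86 ± 0.23 (SE; limma adjusted p = 0.132) for EpiSC-like cells, while a second probe set gave -0.27. All 6 Meis and Pbx genes had differences above 0 from ESC in both comparisons, with medians of 1.07 and 1.20. After centring arrays on their medians all 6 stayed above 0 in both, with medians of 0.92 and 0.99.

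**Figure D4:**
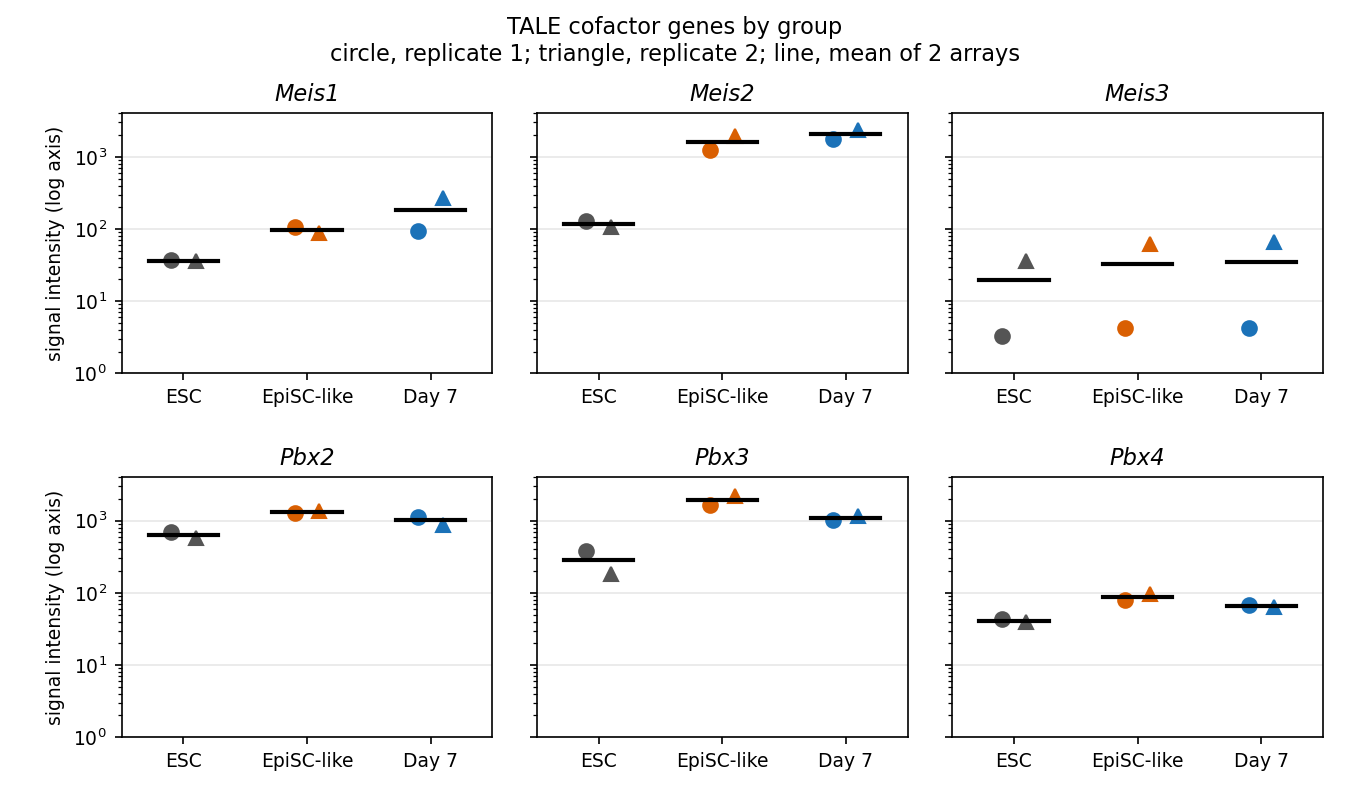
Signal (intensity, log axis) of the 6 Meis and Pbx genes, 1 point per array (circle for replicate 1, triangle for replicate 2) and a line at the mean of each group. Meis2 stays between 1248 and 2384 in both later groups, Pbx3 and Pbx2 are highest in EpiSC-like cells, and Meis3 splits by replicate number.

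**Figure D5:**
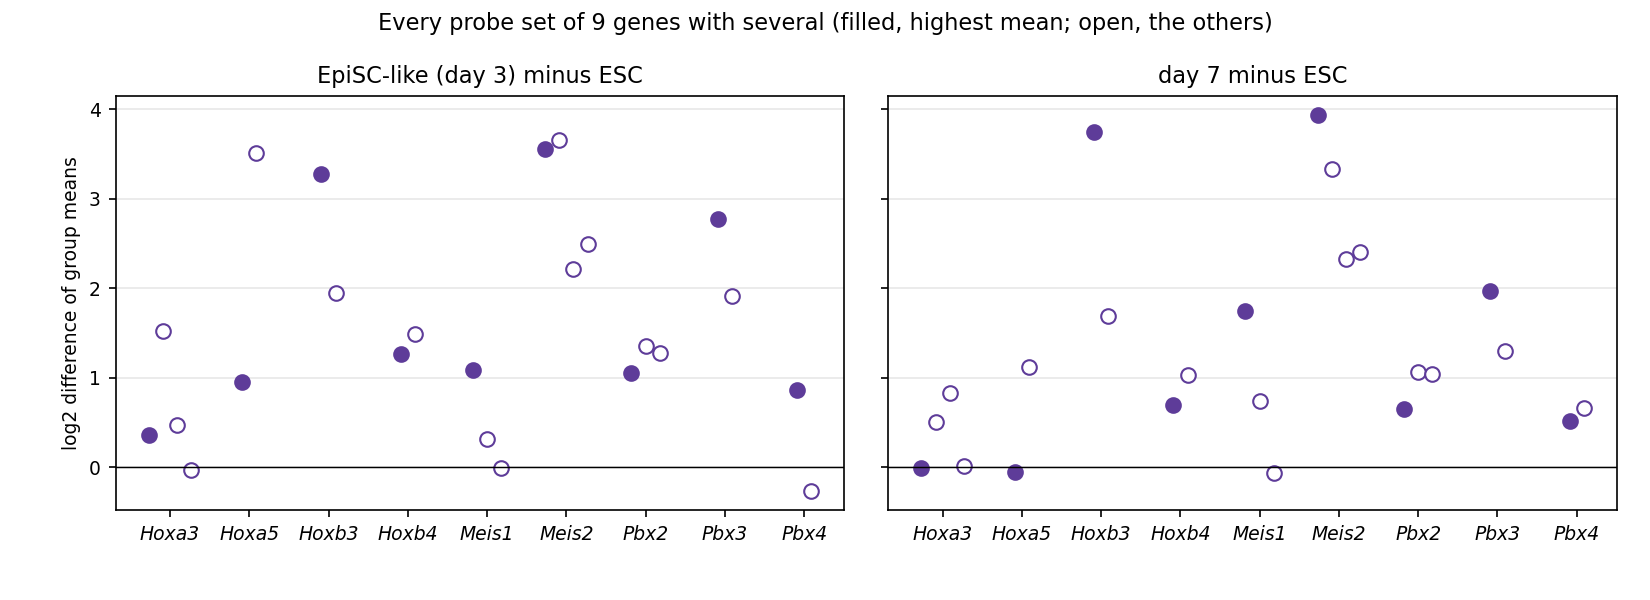
Log2 difference from ESC of every probe set of 9 of the 16 genes with several probe sets, for EpiSC-like cells and day 7, filled for the probe set that represents the gene and open for the others. The 4 Meis2 and 3 Pbx2 probe sets all lie above 0, whereas the Hoxa5 probe sets lie at 0.95 and 3.51 for EpiSC-like cells.

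Between EpiSC-like cells and day 7, 0 of the 39 genes passed in either direction, where 0.022% of all genes were called higher and 0.0165% lower (limma; 6 of the 39 had an unadjusted p under 0.05). Hoxb1, Hoxb2 and Hoxb5, 3 of 39 genes (7.69%), were at least 2-fold lower at day 7 throughout, against 1.17% of all genes, and 0 were higher against 1.54%. The differences between the replicate 1 arrays and between the replicate 2 arrays were -2.90 and -4.09 for Hoxb1, -2.37 and -2.09 for Hoxb2, and -2.37 and -1.44 for Hoxb5. Meis2 gave 0.38 over all arrays. The 2 genes of the Hoxb cluster with a difference above 0 were Hoxb3, which turned with 1 array, and Hoxb9, at 1.28 ± 0.60 (SE; limma adjusted p = 0.410). The Hoxb9 difference also rested on 1 array, EpiSC-like replicate 2 at 3.556, where the others read 49.21 to 80.24.

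The calls rested on few arrays. Without ESC replicate 2, EpiSC-like replicate 1 or EpiSC-like replicate 2, 0 of the 5 EpiSC-like calls passed (limma; 12, 13 and 11 of 39 with an unadjusted p under 0.05), nor did any of the 18194 genes. Without ESC replicate 1 Meis2 and Pbx3 passed, among 63 of all genes. Over the 6 fits that each left out 1 array, the difference was 4.56 to 6.13 for Hoxb1, 4.04 to 4.88 for Hoxb2, 2.37 to 2.73 for Hoxb5, 3.24 to 3.88 for Meis2 and 2.28 to 3.28 for Pbx3. With either day 7 array left out 4 of the members passed, Hoxb2, Hoxb3, Hoxb5 and Meis2, among 41 of all genes, and the Meis2 call at day 7 was lost without any 1 of the 6 arrays, at differences of 3.71 to 4.16. The labels do not say what the replicate number stands for. With it as a block, 0 of the 39 genes and 0 of all genes passed in any comparison (limma; 14, 10 and 7 of the 39 with an unadjusted p under 0.05). The adjusted p of the 5 genes in EpiSC-like cells was then 0.0508 to 0.0619, at the same differences.

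The other genes of the pathway came from lists chosen with earlier results of these data known, and are described by counts. Of all genes, 1.31% were called higher and 0.583% lower in EpiSC-like cells against ESC, with a median difference of 0.03. For day 7 against ESC these values were 0.753%, 0.286% and 0.02, and between the later groups 0.022%, 0.0165% and -0.02. The same shares stand beside the marker counts below. Of 17 measured genes of retinoic acid signalling, from its synthesis to its responses, 3 rose in EpiSC-like cells against ESC and 0 fell, with a list median of 0.22. They were Rarb, a receptor and a known retinoic acid target (2.00, limma adjusted p = 0.0229), Dhrs3, which turns retinaldehyde back to retinol (3.20, limma adjusted p = 0.0164), and Stra8, a gene first found as a retinoic acid response (3.13, limma adjusted p = 0.0164). Dhrs3 read 21.04 and 14.27 in ESC, 277.7 and 304.3 in EpiSC-like cells, and 69.79 and 43.49 at day 7, the same order of groups as Hoxb1 and Hoxb2. At day 7 against ESC, Stra8 (1.90, limma adjusted p = 0.0393) and Cyp26b1, which breaks retinoic acid down (3.28, limma adjusted p = 0.0362), rose and 0 fell. Cyp26b1 read 7.252 and 19.96 in ESC, 14.93 and 5.173 in EpiSC-like cells, and 188.6 and 369.3 at day 7, so that it was high at day 7 alone.

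Of 15 measured signals and transcription factors known upstream of Hox genes, 3 rose in EpiSC-like cells and 0 fell, with a median of 0.58. They were Wnt8a, a Wnt ligand of the early embryo (3.68, limma adjusted p = 0.0227), the transcription factor Sp8 (2.77, limma adjusted p = 0.0164) and Gbx2, a homeobox gene of the anterior hindbrain (1.83, limma adjusted p = 0.0493). From EpiSC-like cells to day 7 Gbx2 fell (-3.65, limma adjusted p = 0.0495), and Wnt8a (-2.78, limma adjusted p = 0.0863) and Sp8 (-1.38, limma adjusted p = 0.0987) were also at least 2-fold lower throughout but not called. The caudal genes Cdx1, Cdx2 and Cdx4, which act on central Hox genes, lay between 1.168 and 92.31 on all arrays. Fgf8 gave 3.61 ± 0.76 for EpiSC-like cells (SE; limma adjusted p = 0.0755).

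Of 11 other TALE and partner genes, Irx3, Irx5 and Pknox2 rose in EpiSC-like cells, at 3.11, 2.14 and 3.03 (limma adjusted p = 0.0140, 0.0203 and 0.0243), and 0 fell. Irx3 and Irx5 are TALE genes of the Iroquois family, and Pknox2 is a relative of Meis. At day 7 against ESC Irx3 (2.89, limma adjusted p = 0.0221) and Irx5 (1.91, limma adjusted p = 0.0362) rose. Over these 11 genes the medians were 0.2 in EpiSC-like cells and 0.67 at day 7, with 6 and 8 of them above 0. Of 20 Polycomb and Trithorax genes, 1 was called higher in both comparisons, the Polycomb subunit Bmi1, and 0 were called lower. Bmi1 gave 1.79 and 1.85 (limma adjusted p = 0.0270 and 0.0362). Eed, not called, gave -1.24 and -1.14 (limma adjusted p = 0.0644 and 0.0878). It read 13180 and 16740 in ESC, 6849 and 5767 in EpiSC-like cells, and 6484 and 6942 at day 7. Kdm6b, not called either, gave 1.38 and 1.29 (limma adjusted p = 0.116 and 0.128). Medians of this list were 0.03 and 0.11. Of 15 ParaHox, Evx and similar homeobox genes, and of 5 reported targets of hindbrain Hox and Meis proteins, 0 passed in any limma comparison.

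Markers of other cell types were measured beside these genes. The summed signal of 10 measured mesoderm and primitive streak markers, tissues that also express Hox genes, was 1916 and 2851 in ESC, 2777 and 2910 in EpiSC-like cells, and 1638 and 1840 at day 7. Of these 10, 2 were bright and 0 were called, and T, also listed, was not measured. Tcf15 was the largest part of the sum (1327 and 2146, then 1918 and 2228, then 763.5 and 1098). Eomes, the other bright gene, read 178.8 and 158.9 in ESC, 507.6 and 243 in EpiSC-like cells, and 492.5 and 346.3 at day 7. Eomes was thus higher on every later array than in ESC, whereas Hand1 and Mesp2 were lower on every later array. The sum of 8 endoderm markers was 612.1 to 803.9 in ESC and EpiSC-like cells, and 2442 and 10480 on day 7 replicates 1 and 2. Most of the day 7 sum came from Col4a1 (1853 and 7417). Afp, Apoa1, Dab2, Foxa2, Sox17 and Ttr were also higher on replicate 2 than on replicate 1 of day 7. Gata4 stayed within its ESC range at day 7 (36.77 and 55.09, against 62.99 and 17.94). The sum of 5 neuronal markers was 9589 and 14390 in ESC, mostly from Stmn2 (8317 and 13360), then 2693 and 2159 in EpiSC-like cells, and 2571 and 5220 at day 7. That of 6 trophoblast markers was 1135 and 1059, then 448.6 and 758.4, then 1203 and 2863. It came mostly from Krt18 (702.8 and 1651 at day 7) and Krt8 (321.1 and 911.3). Of the others, Krt7 and Gata3 were higher at day 7 than in ESC, Elf5 was lower, and Cdx2 overlapped. Hoxb3 (145.6 and 1025) and Meis1 (93.92 and 268.3) were, like the endoderm, neuronal and trophoblast sums, higher on replicate 2 of day 7. This was not particular to them. Hoxb1, Hoxb2 (103.2 and 241.8), Hoxb4, Hoxb5, Hoxb6, Hoxa2 and Meis2 were also higher on that array, while Pbx2 and Pbx4 were lower. The neural progenitor, pluripotency, mesoderm and neural crest sums were higher on it too, and the epiblast sum lower. The part of any of these cells in the Hoxb3 and Meis1 signals was not tested. The sum of 6 neural progenitor markers was 480.2 and 485.5 in ESC, 2300 and 2772 in EpiSC-like cells, and 1831 and 2476 at day 7, an order without overlap between ESC and the rest, as for Meis2. Pax6, of this list, was lower at day 7 (170.7 and 184.2) than in ESC (189.5 and 213.2). The others were higher on every later array than in ESC, Nes by little (138.8 and 156.6 in ESC, 184.5 to 297.2 later). Of 4 epiblast markers, 2 were called higher in EpiSC-like cells and 1 at day 7 against ESC. Dnmt3b, Fgf5 and Pou3f1 were highest in EpiSC-like cells, as Hoxb1 and Hoxb2 were. Otx2 was highest at day 7 (3972 and 4509, against 3848 and 3827 in EpiSC-like cells). Most of the epiblast sum came from Dnmt3b (10400 and 7148, then 17820 and 22680, then 10850 and 7356). The epiblast sum was 12690 and 9730 in ESC, 28300 and 32960 in EpiSC-like cells, and 16520 and 12640 at day 7. That of 6 pluripotency markers was 68390 and 88490 in ESC, 40890 and 38730 in EpiSC-like cells, and 51130 and 61690 at day 7, without overlap, and 2 of the 6 fell in EpiSC-like cells. That of 6 neural crest markers was 866.6 and 680.0, then 1186 and 896.2, then 900.4 and 1015, with 1 called higher in EpiSC-like cells. The part of these cell states in the Hox and TALE signals was not tested.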

How the data were processed

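RNA of 6 sorted cell samples was hybridised to Affymetrix 3' expression arrays. Each deposited value is a linear intensity of 1 probe set, and the values show that the authors had scaled the arrays to a common trimmed mean. Affymetrix Expression Console (version 1) is named in the submitters' processing notes; its algorithm and the annotation's genome build are not given in the sources used here. Detection calls were not used here. Of 45101 probe sets, 64 controls were left out, and the platform annotation gave 1 gene to 34945, several to 932 and none to 9160. Of those with 1 gene, 34741 were found in the RefSeq table (GRCm38.p6), which changed 0 symbols. For genes with several probe sets, the one with the highest mean log2 value was used, giving 18194 genes.

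log2 values of the deposited intensity were taken after adding 16. limma (version 3.58.1, R 4.3.3) was fitted with 3 group means, no filter and 3 residual degrees of freedom. The call in each of 3 comparisons was a Benjamini-Hochberg adjusted p below 0.05. The script was tested on simulated data. The number of arrays limits the precision.

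The members and lists were chosen with earlier results of these data known. Array by array, the rule named the members called in any comparison and those at or above the median brightness of all genes; of the lists it named every called gene and up to 3 others. Genes described beyond it were chosen after their values were seen. Alternatives were pseudocounts of 1 and 64, filters on dim genes, centring and quantile normalization, a replicate block, fits of the 2 groups compared, other choices of probe set, and leaving out each array. Same-numbered arrays deviated from their group means with correlations of 0.28, 0.08 and 0.10 over genes, and the labels do not tie the numbers to shared cultures, so the arrays were not treated as paired.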

Additional observations from a re-analysis of the deposited data

How the results depend on the processing

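limma called 5 members in EpiSC-like cells against ESC, 1 in day 7 against ESC and 0 between the later groups, among 345, 189 and 7 of all genes. With a pseudocount of 1 these counts were 0, 0 and 0 of members (14, 9 and 7 with an unadjusted p under 0.05) and 0, 0 and 0 of all genes. With a pseudocount of 64 they were 6, 2 and 1 of members and 672, 679 and 206 of all genes. Keeping genes at or above the 25th percentile gave 4, 4 and 1 of members and 672, 567 and 144 of all genes, and keeping those at or above the median gave 3, 2 and 0 and 734, 843 and 315. These filters, on the mean over all arrays, left 20 and 4 of the 39 members to test; the first removed Hoxb5, the second Hoxb1, Hoxb2 and Hoxb5, and under the second Pbx2 was called in EpiSC-like cells (adjusted p = 0.0275). Fits of only the 2 groups compared called 4, 0 and 0 members and 41, 0 and 0 genes. The most variable probe set gave 5, 1 and 0 members and 149, 10 and 0 genes, and quantile normalization 5, 1 and 0 members and 288, 144 and 0 genes. Centring arrays on their medians left the 5, 1 and 0 members, and split the genes called into 184 higher and 149 lower for EpiSC-like cells, and 93 and 82 for day 7 against ESC, from 239 and 106, and 137 and 52. Leaving out 1 array gave 0 to 4, 0 to 1 and 0 to 0 members and 0 to 63, 0 to 10 and 0 to 0 genes; an array left alone in its group was assumed to vary like the others.

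With the replicate number as a block 0, 0 and 0 members passed (14, 10 and 7 with an unadjusted p under 0.05) and 0, 0 and 0 genes; the adjusted p of the 5 members called in EpiSC-like cells was then 0.0510 for Hoxb1, 0.0517 for Hoxb2, 0.0508 for Meis2, and 0.0619 for Hoxb5 and Pbx3. The block used 1 of 3 residual degrees of freedom. A block for the arrays low in added control RNA, chosen after seeing the data, called 2, 0 and 0 members, with Hoxb1 and Meis2 at an adjusted p of 0.0494, and 116, 0 and 0 genes. The 5 members called in EpiSC-like cells, and Meis2 at day 7, kept their direction under every alternative run.

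Differences that turned sign were all uncalled, and the cause was not tested. Hoxa5 at day 7 against ESC went from -0.05 to 0.54 with the mean of all probe sets, 1.12 with the most variable one, and 0.43 with the control RNA block, and without 1 array ranged from -0.44 to 0.34. Hoxc4 in EpiSC-like cells against ESC went from 0.01 to -0.01 with a pseudocount of 1, -0.14 after centring and -0.04 after quantile normalization, and without 1 array ranged from -0.13 to 0.14. Hoxb6 at day 7 against ESC went from 0.03 to -0.02 with a pseudocount of 1, -0.18 after centring, -0.02 after quantile normalization and -0.07 with the control RNA block, and without 1 array ranged from -0.31 to 0.38. Pbx4 went to -0.27 in EpiSC-like cells against ESC with the most variable probe set, and between the later groups to 0.29 with the mean of probe sets and 0.93 with the most variable one. Between the later groups and without 1 array, Hoxa2 ranged from -1.16 to 0.06, Hoxb3 from -0.87 to 1.82 and Meis1 from -0.02 to 1.35, with the sign turned without day 7 replicate 1 for Hoxa2 and without day 7 replicate 2 for the others.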

Other observations

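Of the probe sets that name a member together with another gene, 3 stayed out of the comparisons. The one shared by Hoxb8 and Hoxb7 read 1.8 and 29.8 in ESC, 21.9 and 44.8 in EpiSC-like cells, and 23.6 and 12.3 at day 7. The brighter of the 2 shared by Hoxd4 and Hoxd3 read 66.9 and 110.1, then 30.7 and 72.9, then 44.6 and 113.0 in the same order. The groups overlapped in both.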
